A study of Mus musculus with 12 samples.

Results

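The subject here is 10 interferon-inducible GTPase genes of mouse CD4+ T cells. Of these, 8 belong to the guanylate-binding protein family (Gbp2, Gbp3, Gbp4, Gbp5, Gbp6, Gbp7, Gbp9 and Gbp11, the last listed as a pseudogene) and the other two, Gm12250 and Igtp, to the immunity-related GTPases. They were chosen by measured values of these data, since Gbp2, Gbp11 and Gm12250 were lower with cyclosporin A (CsA) in unstimulated cells, so that contrast is given below as a description for every member, with no test. All 10 members passed the filter on low counts, among 14398 of the 45321 genes in the tables. RNA was sequenced from total CD4+ T cells of C57BL/6 mouse spleen, purified untouched, in 12 libraries, 3 in each of 4 groups. CsA_PI cells received 1 µM CsA for 1 h and then 10 nM phorbol 12-myristate 13-acetate (PMA) with 1 µM ionomycin for 2 h. The ethanol_PI cells received the ethanol vehicle and the same stimulation. CsA_US and ethanol_US cells received CsA or vehicle and were left unstimulated. The labels do not say that replicates came from separate animals, so p-values measure only the spread between these libraries.

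Guanylate-binding proteins and immunity-related GTPases are defence proteins that interferons, above all interferon gamma, switch on in many cell types. Their promoters can carry gamma-activated sites (GAS) and interferon-stimulated response elements (ISRE), and the transcription factor IRF1 binds ISRE. The proteins gather on membranes around intracellular parasites and bacteria and help to disrupt them, and several promote inflammasome activation. PMA switches on protein kinase C and ionomycin lets calcium into the cell, which bypasses the T cell receptor. CsA blocks calcineurin, the phosphatase that lets NFAT factors enter the nucleus, and activated T cells need NFAT for much of their interferon gamma transcription.

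The genes lie in 3 neighbourhoods on the mm10 build. Gbp5, Gbp7, Gbp3 and Gbp2 follow each other on the plus strand of chromosome 3 between 142493978 and 142638008. On the minus strand of chromosome 5, Gbp9, Gbp4, Gbp6 and Gbp11 lie between 105077630 and 105346472, and the spans of Gbp9 and Gbp4 overlap by 23773 bases. Gm12250 and Igtp are neighbours on the plus strand of chromosome 11, at 58187739 to 58189012 and 58199556 to 58207591. The annotation used to sum transcripts lists Gm12250 as a processed pseudogene and Gbp11 as a polymorphic pseudogene. RefSeq lists Gm12250 as protein coding with the synonym Irgb10, Gbp11 as a transcribed pseudogene, and Igtp with the synonym Irgm3.

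RefSeq promoter windows (GRCm38.p6, 250 bases before to 50 after a gene's start) were matched by symbol for 6 members: Gbp5, Gbp7, Gbp3, Gbp2, Gm12250 and Igtp. Gbp4, Gbp6, Gbp9 and Gbp11 were not matched. All 6 held an ISRE core (GAAANNGAAA, either strand), a motif present for 3.99% of 27025 genes with a window. A GAS core (TTCNNNGAA, which reads as the same motif on both strands) was found for 4 of the 6, Gbp5, Gbp7, Gm12250 and Igtp, and for 9.55% of all genes. The NFAT core GGAAA, on either strand, was found for 4 of the 6 and for 64.4% of all genes, and the AP-1 site TGANTCA for 1 of the 6, Gbp2, and 8.97% of all genes. Matched GAS and NFAT cores can overlap, as they do in Gbp7. A match is a description of letters and was not tested as a binding site. The 250 bases before the start of 4 members are shown, 5′ to 3′, because they hold an ISRE core without a GAS or NFAT core (Gbp2), ISRE and GAS cores without an NFAT core (Gm12250), and all 3 motifs (Gbp7 and Igtp). Capitals mark ISRE and GAS cores. These starts are RefSeq's, and the annotation used for the counts puts the start of Gm12250 3896 bases further downstream, so its window does not adjoin the stretch that was counted. The starts differ by 61 bases or fewer for the other 3.
Gbp2, chr3:142620413-142620662, + strand: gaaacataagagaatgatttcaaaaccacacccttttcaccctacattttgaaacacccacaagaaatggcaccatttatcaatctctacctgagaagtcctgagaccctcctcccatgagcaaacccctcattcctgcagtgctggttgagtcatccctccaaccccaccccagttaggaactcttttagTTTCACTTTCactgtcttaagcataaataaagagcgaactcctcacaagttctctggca
Gm12250, chr11:58183593-58183842, + strand: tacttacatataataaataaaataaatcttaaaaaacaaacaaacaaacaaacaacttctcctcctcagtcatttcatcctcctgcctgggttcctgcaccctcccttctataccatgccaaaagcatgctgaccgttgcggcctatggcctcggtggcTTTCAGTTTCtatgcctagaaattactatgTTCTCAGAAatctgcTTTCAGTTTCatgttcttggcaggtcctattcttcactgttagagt
Gbp7, chr3:142530086-142530335, + strand: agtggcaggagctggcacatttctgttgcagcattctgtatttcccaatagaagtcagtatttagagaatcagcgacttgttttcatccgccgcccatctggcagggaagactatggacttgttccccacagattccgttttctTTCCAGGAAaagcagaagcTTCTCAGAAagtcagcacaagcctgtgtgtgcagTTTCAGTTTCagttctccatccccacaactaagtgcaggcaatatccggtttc
Igtp, chr11:58199306-58199555, + strand: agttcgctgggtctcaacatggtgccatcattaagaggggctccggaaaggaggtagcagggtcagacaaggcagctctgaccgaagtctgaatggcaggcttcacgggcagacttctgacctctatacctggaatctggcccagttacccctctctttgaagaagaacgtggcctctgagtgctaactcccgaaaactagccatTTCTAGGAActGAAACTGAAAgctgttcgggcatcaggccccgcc
In Gbp2 the ISRE core spans the bases 59 to 50 before the start, and the AP-1 site spans 102 to 96. Gm12250 has 2 ISRE cores, at 91 to 82 and 46 to 37, on both sides of a GAS core at 61 to 53. The ISRE core of Igtp, at 34 to 25, and its GAS core, at 45 to 37, are 2 bases apart.

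Libraries held between 10523816 and 18468044 estimated counts, and 3 counts corresponded to 0.162 to 0.285 CPM (counts scaled to library size). The T cell markers Cd3e and Cd4 were at 176 to 314 and 198 to 448 CPM in every library. Replicate 2 of every group also held more transcripts of B cell and myeloid markers. The sum of 8 B cell markers was 1063 CPM in CsA_PI 2, 557 in ethanol_PI 2, 1005 in CsA_US 2 and 1044 in ethanol_US 2, against 78.4 to 159 CPM in the other libraries, and no marker was at 0 throughout. The sum of 12 myeloid and dendritic markers was 249 to 276 CPM in the 4 replicate 2 libraries and 44.9 to 84.9 CPM elsewhere. Not every marker on that list was higher there: the dendritic marker Xcr1 was at 4.44 CPM in CsA_PI 2, against 19.8 and 19.4 CPM in CsA_PI 1 and 3. The sum of 7 CD8 and NK cell markers was not raised, at 90.7 to 110 CPM in the replicate 2 libraries and 75.6 to 136 CPM elsewhere. That sum hides the CD8 markers. Cd8a was at 5.25 to 6.35 CPM in the replicate 2 libraries and at most 1.63 CPM elsewhere. Cd8b1 was likewise higher in each replicate 2 library than in any other library. Nkg7 and Klrb1c went the other way, with the lowest value of each group in replicate 2. The library labelled CsA_PI 2 stood apart from its group: its Ifng, 12.8 CPM, was within the 7.95 to 16.8 CPM of the unstimulated libraries, against 84.8 and 59.0 CPM in CsA_PI 1 and 3. Over the 14398 genes tested, its log2(CPM + 1) values differed from those of ethanol_US 2 by a root mean square of 0.25, the least of all 66 pairs of libraries. The next nearest pair was at 0.41, and CsA_PI 2 was at 0.92 and 0.86 from CsA_PI 1 and 3. The counts of CsA_PI 2 and ethanol_US 2 differed by more than counting error alone gives, with a mean chi-square of 4.06 per gene, against at least 13.6 for any other pair. All 10 members were at 0.957 to 1.1 times their ethanol_US 2 level in CsA_PI 2. So for these genes the CsA_PI 2 values sit at the level of that vehicle-treated, unstimulated library. The cause was not tested, and the library was kept under its label. For every member, the log2 effects of CsA after stimulation, and of stimulation with CsA, are given with and without it. Some other results are given with it only. The part of other cells in the results was not tested.

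Per length and by group mean, Igtp was the most abundant member in 3 of the 4 groups and Gbp11 the least abundant in all 4. Igtp, a regulatory GTPase of the endoplasmic reticulum, averaged 1544 ± 466 TPM (abundance per transcript length, on a fixed library total) in CsA_PI, 1042 ± 134 in ethanol_PI, 892 ± 213 in CsA_US and 1497 ± 342 in ethanol_US (SD, n = 3 each). Without CsA_PI 2 the CsA_PI mean of Igtp was 1734 TPM. In ethanol_PI, Gbp4 was at 1094 ± 150 TPM, and its libraries overlapped with those of Igtp. Gbp2 and Gbp4 were the next most abundant in CsA_PI, CsA_US and ethanol_US, and overlapped with each other in all 3. Gbp4 also overlapped with the next member, Gm12250, in all 3. The order of the middle members was not fixed either: in CsA_US, Gbp6, Gbp9, Gbp7 and Gbp3 lay at 37.3, 34.5, 33.9 and 32.8 TPM, each overlapping with the next. Gbp9 lay below Gbp7 and Gbp3 in ethanol_US at 55.1 ± 12.7 TPM and above both in ethanol_PI at 186 ± 23.2 TPM. At the low end, Gbp11 was at 6.14 ± 2.08 TPM in CsA_PI (a mean of 4.94 without CsA_PI 2), 3.71 ± 0.70 in ethanol_PI, 1.52 ± 0.39 in CsA_US and 8.80 ± 1.14 in ethanol_US. In ethanol_US its libraries, at 7.49 to 9.61 TPM, overlapped with those of Gbp5, at 6.19 to 15.6 TPM.

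**Figure D1:**
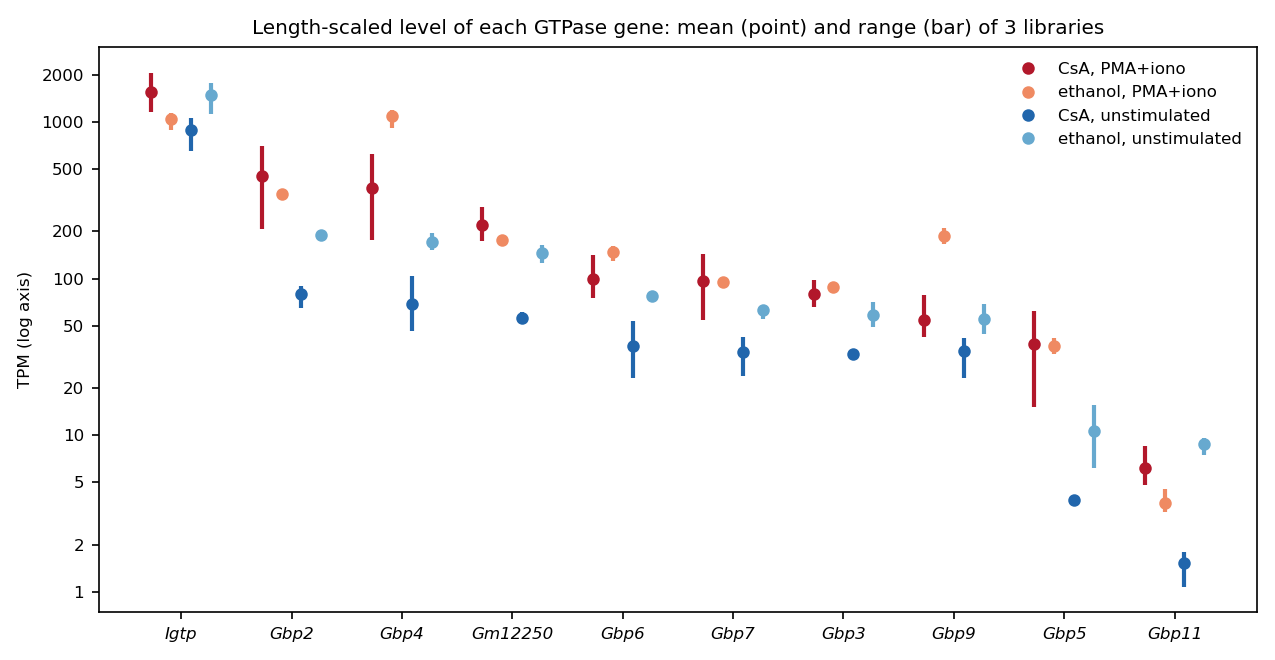
TPM (log axis) of the 10 genes in each group; points are means and bars the range of 3 libraries. By mean, Igtp lies at the top and Gbp11 at the bottom, with Gbp4 level with Igtp in ethanol_PI (1094 and 1042 TPM). In ethanol_US the bars of Gbp11 and Gbp5 overlap.

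In stimulated cells, CsA lowered Gbp9 and Gbp4 and left no other member past the threshold with all 12 libraries. That is 2 of 10 members lower and 0 higher, and the median log2 fold change of the 10 was -0.13. Over all genes tested 23.0% were called (12.7% lower and 10.3% higher), with a median of 0.06. Genes count as called where edgeR's quasi-likelihood test gave an adjusted p (Benjamini-Hochberg, over all genes) under 0.05. Without CsA_PI 2, Gbp9 and Gbp4 were again called lower and Gbp2 was called higher; 22.5% of all genes were called, 12.1% lower and 10.4% higher. In bulk RNA, fewer cells of a type and less RNA per cell cannot be told apart.

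Gbp9, a guanylate-binding protein recruited to Toxoplasma vacuoles, was at 130, 91.6 and 208 CPM in CsA_PI libraries 1 to 3, against 598, 506 and 615 CPM in ethanol_PI. Every CsA_PI library lay below every ethanol_PI library, as did those of 20.5% of all genes; for CsA_PI 1 and 3 alone the share was 26.4%. The log2 fold change was -2.0 ± 0.28 (SE; edgeR adjusted p = 0.000331), or -1.73 ± 0.25 without CsA_PI 2 (adjusted p = 0.000281). Gbp4, which in mouse has been described as a brake on IRF7, was at 880, 337 and 1356 CPM in CsA_PI, against 2981, 2232 and 2917 CPM in ethanol_PI. Again the groups did not overlap. The fall was -1.66 ± 0.39 on the log2 scale (edgeR adjusted p = 0.00846), or -1.24 ± 0.25 without CsA_PI 2 (adjusted p = 0.00259).

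The remaining chromosome 5 genes were not called. Gbp6, another vacuole-targeted family member, was at 247, 152 and 364 CPM in CsA_PI, against 465, 359 and 461 CPM in ethanol_PI. CsA_PI 3 lay just above the lowest ethanol_PI library. Its log2 fold change was -0.75 ± 0.30 (edgeR adjusted p = 0.0948), or -0.45 ± 0.26 without CsA_PI 2 (adjusted p = 0.264). It passed when replicate number entered the fit as a block (-0.79, adjusted p = 0.0309) or without CsA_PI 3 (-1.10, adjusted p = 0.0246). Gbp11 was at 11.4, 13.0 and 10.0 CPM in CsA_PI, against 8.58, 7.66 and 8.13 CPM in ethanol_PI. All 3 CsA_PI libraries lay above ethanol_PI, as did those of 17.4% of all genes. The highest, CsA_PI 2, was within the 11.9 to 15.2 CPM of ethanol_US. CsA_PI 1 and 3 alone lay above ethanol_PI too, as they did for 25.4% of all genes. The difference of 0.50 ± 0.26 did not pass the edgeR test (adjusted p = 0.195), nor did the 0.44 ± 0.29 without CsA_PI 2 (adjusted p = 0.321). It passed only with library totals as the scale (0.86, adjusted p = 0.0478). That scale put the median of all genes at 0.40, against 0.06 with TMM.

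On chromosome 3 the stimulated CsA libraries divided. Gbp2, which coats Toxoplasma vacuoles, was at 1012, 319 and 1350 CPM in CsA_PI, against 785, 771 and 808 CPM in ethanol_PI. CsA_PI 1 and 3 lay above all ethanol_PI libraries and CsA_PI 2 below all of them. The log2 fold change was 0.18 ± 0.37 (edgeR adjusted p = 0.779), but 0.62 ± 0.17 without CsA_PI 2, which passed (adjusted p = 0.0189), and -0.24 without CsA_PI 3 (adjusted p = 0.702). Gbp5, a promoter of NLRP3 inflammasome assembly, was at 110, 26.8 and 136 CPM in CsA_PI, against 98.1, 104 and 87.9 CPM in ethanol_PI. It had the same arrangement of libraries, and its -0.09 ± 0.46 did not pass (edgeR adjusted p = 0.918), nor did the 0.38 ± 0.26 without CsA_PI 2 (adjusted p = 0.351). Gbp7, which has been linked to assembly of the phagocyte oxidase, was at 258, 107 and 346 CPM in CsA_PI, against 269, 261 and 268 CPM in ethanol_PI. It was not called with CsA_PI 2 (-0.17 ± 0.32) or without it (0.22 ± 0.18). Both Gbp5 and Gbp7 turned to 0.17 and 0.11 with library totals. Gbp3, in the same cluster, was at 155, 112 and 193 CPM in CsA_PI, all below the 214, 205 and 215 CPM of ethanol_PI. Its difference of -0.46 ± 0.21 did not pass (edgeR adjusted p = 0.145), nor did the -0.25 ± 0.19 without CsA_PI 2 (adjusted p = 0.411).

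Neither chromosome 11 gene was called. Gm12250, known as Irgb10, which breaks open bacterial membranes, was at 200, 124 and 257 CPM in CsA_PI, against 200, 179 and 182 CPM in ethanol_PI. The log2 fold change was 0.05 ± 0.22 (edgeR adjusted p = 0.905), or 0.32 ± 0.16 without CsA_PI 2 (adjusted p = 0.187). Igtp was at 2411, 1361 and 3084 CPM in CsA_PI, against 2161, 1515 and 1915 CPM in ethanol_PI. Its difference was 0.29 ± 0.29 (edgeR adjusted p = 0.528), or 0.60 ± 0.24 without CsA_PI 2 (adjusted p = 0.0914). Of the 10 members, 9 had their lowest CsA_PI value in CsA_PI 2, and the exception was Gbp11, which was higher in ethanol_US than in ethanol_PI.

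**Figure D2:**
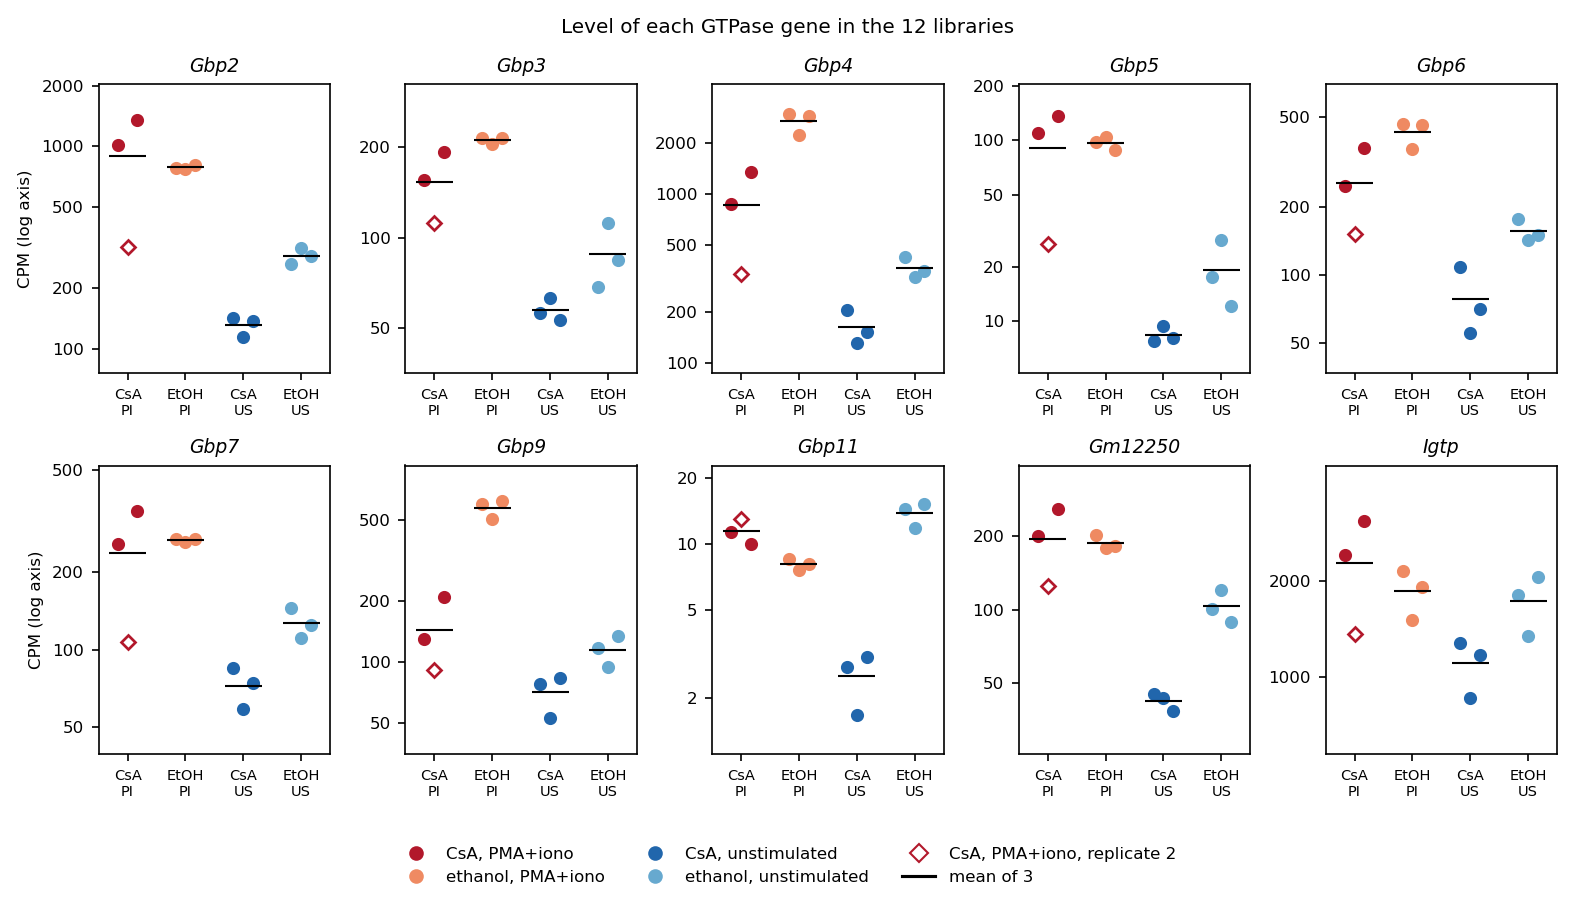
CPM (log axis) of each gene in the 12 libraries, with the 4 groups from left to right as CsA_PI, ethanol_PI, CsA_US and ethanol_US; lines are means of 3 and the open diamond is CsA_PI 2. The 3 CsA_PI values of Gbp9, Gbp4 and Gbp3 lie below all ethanol_PI values, though Gbp3 was not called. The CsA_US values of all 10 genes lie below all ethanol_US values.

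**Figure D3:**
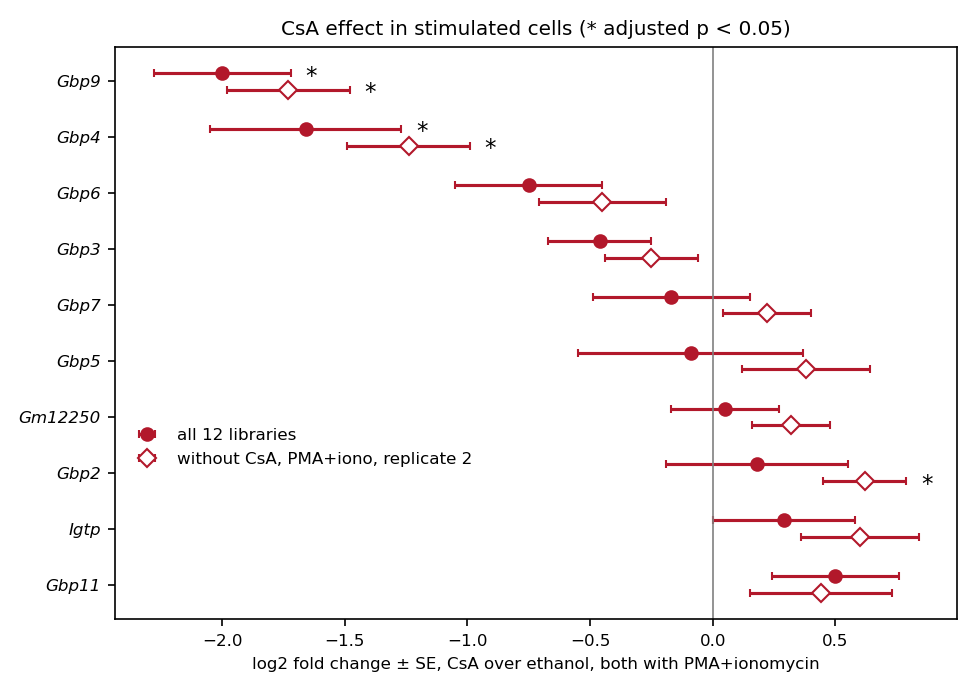
Log2 fold change ± SE of CsA_PI over ethanol_PI for the 10 genes, with all 12 libraries (filled) and without CsA_PI 2 (open); asterisks mark an adjusted p under 0.05. Gbp9 (-2.0 and -1.73) and Gbp4 (-1.66 and -1.24) are marked both ways, and Gbp2 without CsA_PI 2 (0.62) but not with it (0.18).

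In unstimulated cells every member was lower with CsA, as were 51.8% of all genes, which is partly what the selection fixed and is given without a test. Gbp11 was at 2.78, 1.66 and 3.07 CPM in CsA_US, against 14.4, 11.9 and 15.2 CPM in ethanol_US, a log2 fold change of -2.46. These levels rested on 58.8, 27.2 and 41.0 estimated counts in CsA_US and 256, 201 and 262 in ethanol_US. Gm12250 was at 45.1, 43.7 and 38.7 CPM in CsA_US, against 101, 120 and 89.4 CPM in ethanol_US (-1.28). Gbp2 was at 142, 114 and 137 CPM in CsA_US, against 261, 315 and 287 CPM in ethanol_US (-1.13). The 7 members that the rule did not name as lower were below 0 as well, from -1.20 for Gbp5 and -1.17 for Gbp4 to -0.66 for Igtp and -0.62 for Gbp3.

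For all 10 members every CsA_US library lay below every ethanol_US library, an arrangement that 5.29% of all genes had. As a ratio, the narrowest gap was that of Igtp, whose highest CsA_US library lay below its lowest ethanol_US library by a factor of 1.05, at 1276, 858 and 1174 CPM in CsA_US, against 1805, 1343 and 2068 CPM in ethanol_US. The 10 members stayed below 0 in all 190 values from 19 alternative settings. Those settings refit the same libraries, and leaving out a stimulated library takes nothing from this contrast, so the values are no separate support. Across all genes, 1 was called in this contrast with all 12 libraries (0.00695%) and 7 without CsA_PI 2 (0.0465%). The rule used this contrast, so nothing is read from these counts for the members.

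Set side by side, the effects of CsA in stimulated and unstimulated cells were unequal for several members. The difference was not tested because it holds the selecting contrast. The log2 effect in stimulated cells minus that in unstimulated cells was 2.96 for Gbp11, 1.33 for Gm12250, 1.32 for Gbp2, 1.10 for Gbp5, 0.95 for Igtp, 0.64 for Gbp7, 0.25 for Gbp6 and 0.15 for Gbp3. It was below 0 for Gbp4 (-0.49) and Gbp9 (-1.32). Without CsA_PI 2 these values were 2.89 for Gbp11, 1.60 for Gm12250, 1.75 for Gbp2, 1.58 for Gbp5, 1.24 for Igtp, 1.01 for Gbp7, 0.54 for Gbp6, 0.37 for Gbp3, -0.08 for Gbp4 and -1.06 for Gbp9. With each library left out in turn, the values of Gbp6 (-0.09 to 0.58) and Gbp3 (-0.05 to 0.37) took both signs. Gbp11 had every CsA library above the ethanol mean after stimulation and every CsA library below it at rest.

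**Figure D4:**
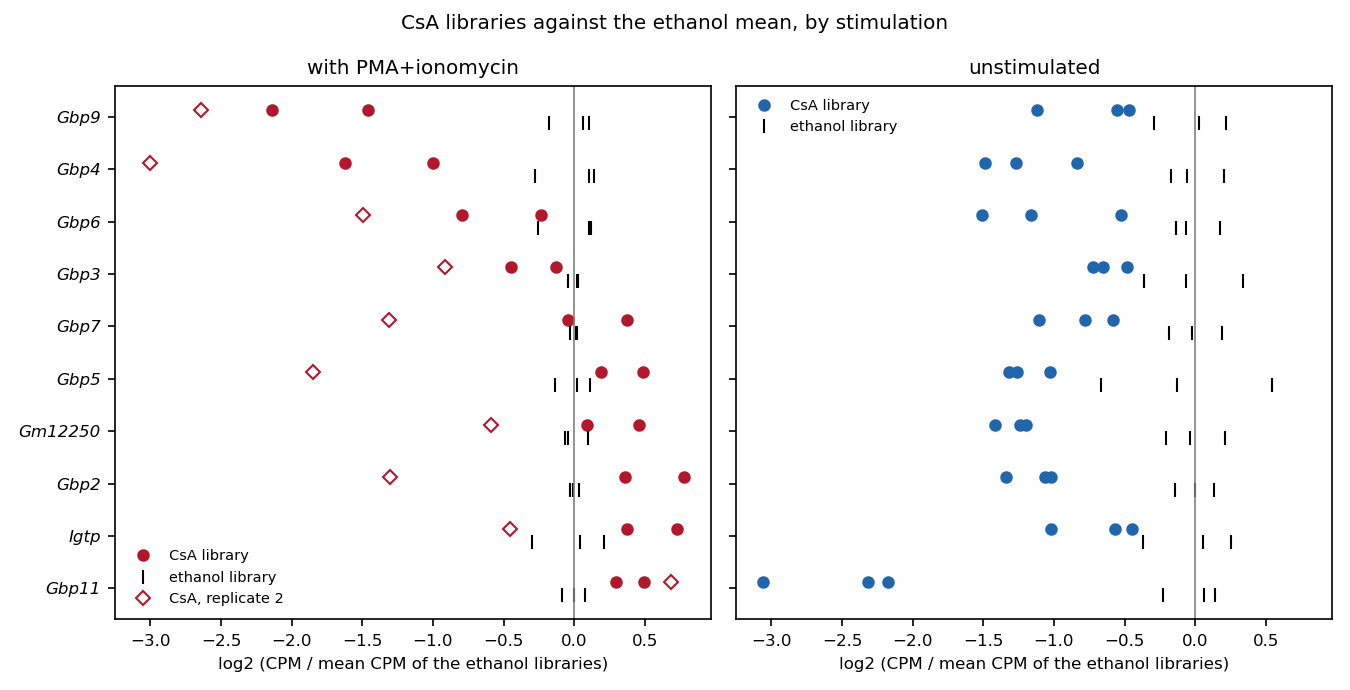
Each library's log2 CPM relative to the mean of the ethanol libraries, with PMA and ionomycin (left) and unstimulated (right); circles are CsA libraries, the open diamond is CsA_PI 2 and ticks are ethanol libraries. At rest all CsA circles lie left of the ethanol ticks of their gene. After stimulation Gbp9, Gbp4 and Gbp3 lie to the left and Gbp11 to the right, and of these Gbp9 and Gbp4 were called.

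Stimulation of vehicle-treated cells raised 6 of the 7 members that the rule did not name as lower, while 39.8% of all genes were called, and 20.1% called higher. The effects share the ethanol_US libraries with the selecting contrast, so no p is given for Gbp2, Gbp11 and Gm12250. Gbp4 was at 2981, 2232 and 2917 CPM in ethanol_PI, against 422, 324 and 352 CPM in ethanol_US, a rise of 2.89 ± 0.40 (edgeR adjusted p = 0.000169). Gbp9 rose by 2.32 ± 0.29 (adjusted p = 6.74e-05), with 506 to 615 CPM in ethanol_PI and 93.9 to 134 CPM in ethanol_US. Gbp5 rose by 2.33 ± 0.49 (adjusted p = 0.00289), with 87.9 to 104 CPM in ethanol_PI and 12.1 to 28.0 CPM in ethanol_US. None of these 3 genes overlapped between the groups, and 28.0% of all genes had every ethanol_PI library above every ethanol_US library. Gbp6 rose by 1.45 ± 0.31 (adjusted p = 0.00265), Gbp3 by 1.26 ± 0.22 (adjusted p = 0.000694) and Gbp7 by 1.07 ± 0.32 (adjusted p = 0.0181). Igtp, already the most abundant member at rest, showed no call (0.10 ± 0.29, adjusted p = 0.819), with 1515 to 2161 CPM in ethanol_PI and 1343 to 2068 CPM in ethanol_US. Among the described genes, Gbp2 was 1.46 and Gm12250 0.86 higher on the log2 scale in ethanol_PI, while Gbp11 was 0.77 lower (a log2 fold change of -0.77).

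The scaling matters for the weaker of these effects. With library totals the median of all genes was -0.63, against -0.02 with TMM, and Gbp7 then had 0.45 (adjusted p = 0.198) and Igtp -0.52 (adjusted p = 0.11). Gbp7 also missed the threshold without ethanol_US 2 (adjusted p = 0.064) or ethanol_US 3 (adjusted p = 0.0621). The described genes shifted as well. Library totals gave 0.25 for Gm12250, 0.85 for Gbp2 and -1.38 for Gbp11, against 0.86, 1.46 and -0.77 with TMM.

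With CsA present, stimulation raised 5 of the same 7 members with all 12 libraries, against 5.28% of all genes called (3.90% higher). Without CsA_PI 2 it raised 7 of 7, against 28.7% (14.1% higher). These effects share the CsA_US libraries with the selecting contrast, in which they are the low side. The selection therefore favours a rise from CsA_US, also for the 7 members with a p. All 10 members had every CsA_PI library above every CsA_US library, an arrangement of 11.5% of all genes. Since CsA_PI 2 matched ethanol_US 2, its place above CsA_US repeats the order of ethanol_US and CsA_US that selected the members, and is no separate sign of stimulation. CsA_PI 1 and 3 lay above every CsA_US library for all 10 members as well, and for 28.6% of all genes. Gbp5 was at 110, 26.8 and 136 CPM in CsA_PI, against 7.72, 9.43 and 8.02 CPM in CsA_US, a rise of 3.44 ± 0.51 (edgeR adjusted p = 0.0395), or 3.85 ± 0.28 without CsA_PI 2 (adjusted p = 1.29e-06). Gbp4 rose by 2.40 ± 0.40, Gbp7 by 1.71 ± 0.32, Gbp6 by 1.70 ± 0.31 and Gbp3 by 1.41 ± 0.22, each with an edgeR adjusted p of 0.0395. Without CsA_PI 2 these rises were 2.75 for Gbp4, 2.02 for Gbp7, 1.93 for Gbp6 and 1.57 for Gbp3, all called. Gbp9 (1.00 ± 0.28, adjusted p = 0.0537) and Igtp (1.05 ± 0.30, adjusted p = 0.0564) just missed. Without CsA_PI 2, Gbp9 rose by 1.20 ± 0.24 (adjusted p = 0.00191) and Igtp by 1.28 ± 0.23 (adjusted p = 0.00123). Gbp2 (2.77), Gbp11 (2.19) and Gm12250 (2.19) are described only. Their values without CsA_PI 2 were 3.14, 2.06 and 2.40.

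These calls lay close to the threshold while CsA_PI 2 was included. Leaving out any other single library lost all 5 member calls, except that 1 stood without ethanol_US 1 and 5 without ethanol_US 2 or ethanol_US 3. Over all 19 alternatives the log2 fold change ranged from 2.80 to 3.85 for Gbp5 and from 1.90 to 2.75 for Gbp4.

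Some of the genes share sequence with relatives, between which the authors' quantification can split reads. Of the distinct 31-base words in a member's transcripts, 25.7% were found in no other gene for Gbp6, 65.7% for Gbp11, 81.7% for Gbp9, 85.6% for Gbp4, 95.1% for Gbp2 and 100% for Gm12250. Gbp6 shared 67.8% of its words with Gm43302 and 51.4% with Gbp10, so its own level is uncertain. Igtp shared 15.9% with its relative Irgm2. The spans of Gbp9 and Gbp4 overlap in the genome on the same strand, but reads were assigned by transcript sequence. Gbp9 shared most words with Gbp8 (9.11%) and Gbp6 (8.70%), and Gbp4 with Gbp6 (6.91%) and Gm43302 (6.79%). Reads from any transcript sequence that Gbp9 and Gbp4 share may be assigned to either.

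Sums over neighbouring members are described without a test. The 4 chromosome 5 genes summed to 1268, 594 and 1938 CPM in CsA_PI, against 4051, 3105 and 4001 CPM in ethanol_PI, with no overlap. With Gbp8, Gbp10 and Gm43302, which share sequence with Gbp6, Gbp9 or Gbp11 and are not members, the sum was 1376, 670 and 2092 CPM in CsA_PI, against 4540, 3448 and 4425 CPM in ethanol_PI. The 4 chromosome 3 genes summed to 1535, 565 and 2024 CPM in CsA_PI, against 1367, 1341 and 1379 CPM in ethanol_PI. For Gm12250 and Igtp the sum was 2611, 1486 and 3341 CPM in CsA_PI, against 2362, 1694 and 2097 CPM in ethanol_PI. So the sums of CsA_PI 1 and 3 were below ethanol_PI on chromosome 5 and above it on chromosomes 3 and 11. The largest part of these sums came from Gbp4, Gbp2 and Igtp, and single members differed. In CsA_PI 1 and 3, Gbp11 on chromosome 5 was above ethanol_PI and Gbp3 on chromosome 3 was below it. In CsA_PI 1, Gbp7 was below ethanol_PI and Gm12250 was within its range.

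At the transcript level, Gbp2 came almost wholly from Gbp2-201 (97.9% to 100% of the gene's counts) and Gbp3 from Gbp3-202 (91.9% to 100%). Most Gbp4 counts were given to Gbp4-202, annotated as subject to nonsense-mediated decay: 80.7% to 88.8% in CsA_PI and 75.5% to 78.4% in ethanol_PI. Gbp9-203, annotated as retaining an intron, carried 47.3% to 55.1% of Gbp9 counts in CsA_PI and 43.9% to 50% in ethanol_PI. The changes of Gbp4 and Gbp9 are thus not those of coding transcripts alone. Igtp-203, a minor Igtp transcript, carried 3.72%, 13.8% and 3.73% of Igtp counts in CsA_PI, 2.39% to 3.09% in ethanol_PI, 12.4% to 15.1% in CsA_US and 10.9% to 14.8% in ethanol_US. By that share CsA_PI 2 lay within the range of the unstimulated libraries. Gbp6-203, annotated as subject to nonsense-mediated decay, carried 19.4% to 31.6% of Gbp6 counts in CsA_PI, 11.4% to 14.6% in ethanol_PI, 29.8% to 43.5% in CsA_US and 26.3% to 44.1% in ethanol_US. These shares are estimates from overlapping transcripts and were not tested.

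The interferon gamma pathway around the members was read from lists of known genes. In stimulated cells, CsA lowered the ligand gene Ifng by far the most of these: 84.8, 12.8 and 59.0 CPM in CsA_PI, against 2052, 1573 and 1386 CPM in ethanol_PI (-5.00 ± 0.60, edgeR adjusted p = 0.000165). The receptor chains moved the other way. Ifngr1 was at 1197, 1419 and 1262 CPM in CsA_PI, against 302, 197 and 244 CPM in ethanol_PI (2.38 ± 0.26, adjusted p = 4.47e-05). Ifngr2 was higher by 1.63 ± 0.17 (adjusted p = 3.65e-05). Irf1 was not called (0.30 ± 0.30, adjusted p = 0.522). Socs1, the feedback inhibitor of JAK kinases, was lower (-1.61 ± 0.41, adjusted p = 0.0139). Of the 20 genes on the pathway list, 6 were called higher and 4 lower, including Ifnar1, a type I interferon receptor chain, at 1.63. Without CsA_PI 2, 6 were called higher and 3 lower, with Ifng at -4.49, Ifngr1 at 2.35, Ifngr2 at 1.59, Socs1 at -1.18 and Ifnar1 at 1.71, all called.

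**Figure D5:**
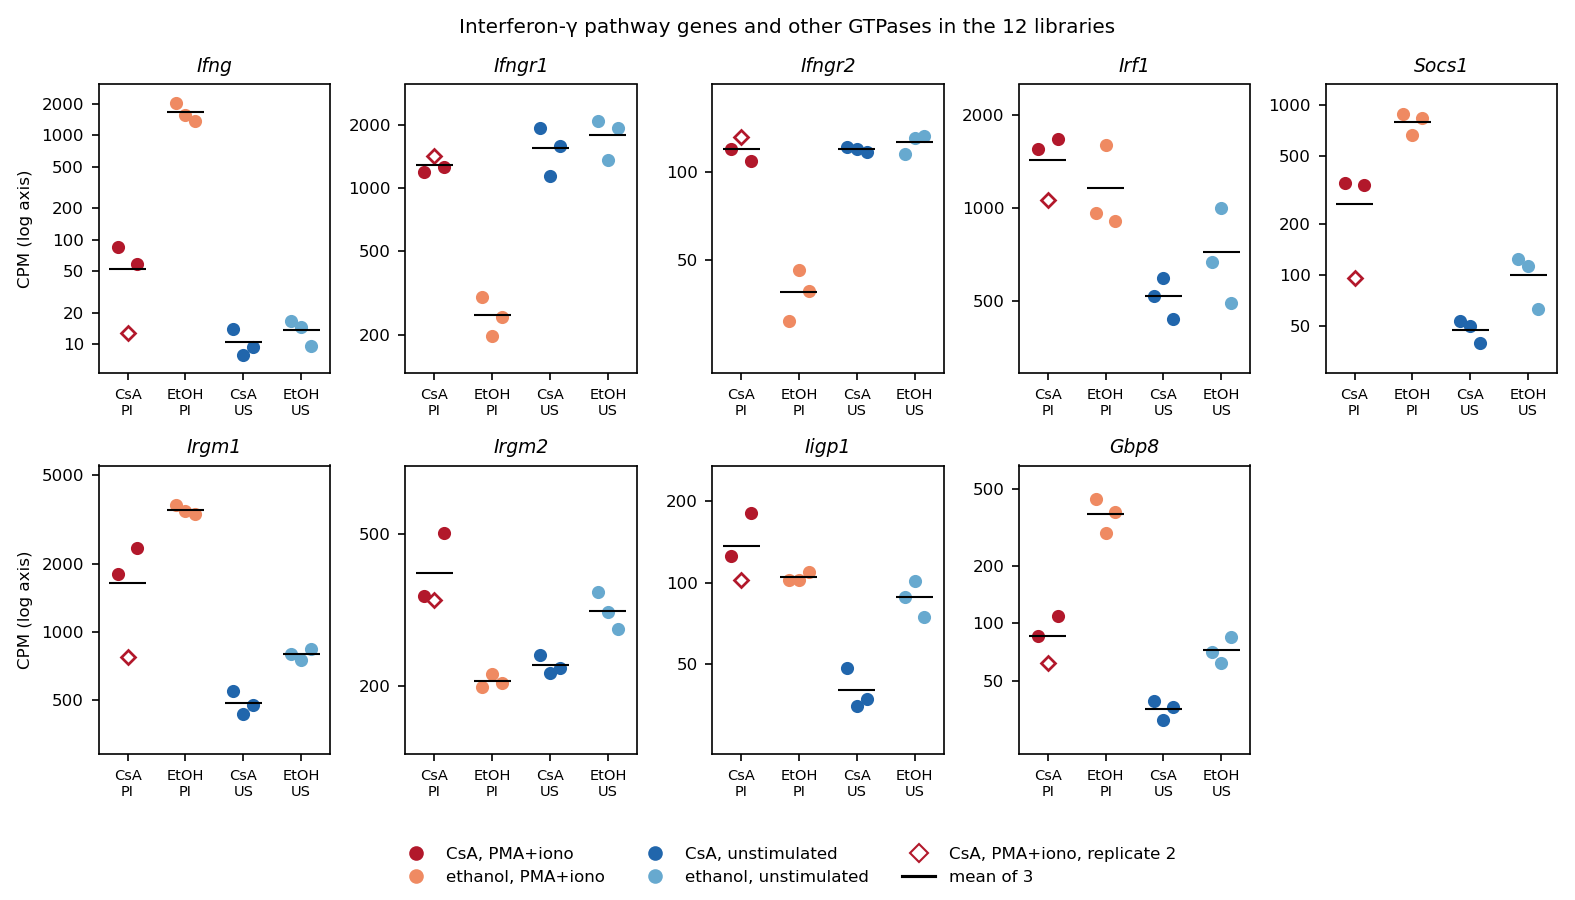
CPM (log axis) of interferon gamma pathway genes and related GTPases in the 12 libraries, drawn as for the members. Ifng, Socs1, Irgm1 and Gbp8 lie lower in CsA_PI than in ethanol_PI, while Ifngr1, Ifngr2 and Irgm2 lie higher.

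The effects of stimulation on these genes are given for comparison. Ifngr1 (-2.85 ± 0.26, edgeR adjusted p = 9.35e-06) and Ifngr2 (-1.70 ± 0.17, adjusted p = 1.46e-05) were lower in ethanol_PI than in ethanol_US. Socs1 (3.0 ± 0.43, adjusted p = 0.00023) was higher. With CsA present, Ifngr1 and Ifngr2 were not called between CsA_PI and CsA_US (-0.27 and 0.00), nor without CsA_PI 2 (-0.37 and -0.09). These comparisons share their stimulated or unstimulated libraries with the CsA contrasts.

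A list of related GTPase genes outside the members was mixed. It is not the whole rest of both families, and Gm43302, for example, is not on it. Of 15 genes on the list that were tested, 5 were called higher and 2 lower with CsA in stimulated cells. Gbp8, a guanylate-binding protein gene that is not a member, was at 86.1, 62.0 and 110 CPM in CsA_PI, against 443, 297 and 380 CPM in ethanol_PI (-2.12 ± 0.23, edgeR adjusted p = 5.28e-05). Irgm1, a regulatory immunity-related GTPase, was lower as well, by -1.08 ± 0.31 on the log2 scale (adjusted p = 0.0241). Irgm2, another regulator, was at 343, 337 and 503 CPM in CsA_PI, against 200, 216 and 204 CPM in ethanol_PI (0.93 ± 0.18, adjusted p = 0.00267). The large GTPase-like genes 9930111J21Rik1 (2.51 ± 0.44, adjusted p = 0.00179) and 9930111J21Rik2 (2.14 ± 0.21, adjusted p = 2.83e-05) were higher. Iigp1, an effector that vesiculates parasite vacuoles, was not called (0.38 ± 0.21, adjusted p = 0.235) unless CsA_PI 2 was left out (0.58 ± 0.20, adjusted p = 0.0484). Without that library the counts were again 5 higher and 2 lower, and the effect was -1.89 for Gbp8, -0.71 for Irgm1 and 1.07 for Irgm2. In unstimulated cells none of the 15 was called, and their median was -0.72, against -0.01 over all genes.

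The wider lists were mixed in stimulated cells. Of 23 other interferon gamma targets tested, 5 were higher and 7 lower with CsA, and Lap3 (-2.21), Serpina3g (-1.91) and Nampt (-1.5) were among the lower ones. Of 24 genes known from type I interferon, 11 were higher and 3 lower, with a median of 0.77, and they included Ifit3b (4.29), Ifit3 (2.70) and the RNA sensor Ifih1 (-2.63). Of 20 partners in vacuole targeting and inflammasomes, 3 were higher and 4 lower, and the inflammatory caspases Casp4 (-2.40) and Casp1 (-1.26) were among the lower ones. Trim21, an antibody receptor and ubiquitin ligase, was higher (1.69). All named here passed edgeR's test. Without CsA_PI 2 the counts were 7 higher and 7 lower, 11 higher and 3 lower, and 5 higher and 4 lower, in the same order of lists, and the median of the type I list was 0.87.

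By the root mean square difference of centred log2 CPM over the 12 libraries, Gm12250 was most like Iigp1 (0.31), Gbp7 (0.32) and Gbp3 (0.34), where the median of all 8020 genes compared was 0.97. Gbp2 was most like Twsg1 (0.31), Gm12185 (0.32) and Gm12250 (0.37), with a median of 1.20. The genes nearest to Gbp11 were farther away: Iigp1 (0.59), Gsap (0.63) and Csgalnact2 (0.65), with a median of 1.08. Without CsA_PI 2 the 3 nearest genes were the same for Gbp2, while Gm12185 (0.35) took the place of Gbp3 for Gm12250 and Pggt1b (0.64) that of Csgalnact2 for Gbp11.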

How the data were processed

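Per the submitters' processing notes, the authors trimmed reads with cutadapt and quantified transcripts with kallisto on mm10; versions are not given in the sources used here. The deposited tables hold estimated counts per transcript and, per the file headers, TPM (length-scaled within a library) with transcript and effective lengths. Of 109617 transcripts, 108214 matched the GENCODE M21 annotation and were summed per gene, and the counts were rounded; the unmatched ones carried 0.494% to 0.628% of counts. Low counts were filtered with a minimum of 10 (total 15). All 12 libraries entered 1 edgeR 4.0.16 fit in R 4.3.3 (TMM scaling, quasi-likelihood, robust), with Benjamini-Hochberg adjustment over all genes. CPM are TMM-scaled, and SE is the absolute log2 fold change over the square root of F. The floor of 3 counts covers counting error only, while SE and SD also take in the spread between libraries. The tests were checked on simulated counts with known changes, the same spread for all genes and no outlying library. That setting differs from these data, so the check does not show how the tests perform here. Alternatives used DESeq2 1.42.0, limma 3.58.1 on log2(TPM + 1), RLE or library totals, no filter, a replicate block, the compared groups alone, and each library left out.

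Members and the 11 gene lists were chosen with earlier results of these data known. Named genes are the members, 9 fixed genes (1 is not reported here), up to 3 called genes per list with the largest change and at least 1 CPM, and the 3 genes most like Gbp2, Gbp11 and Gm12250 with at least 10 CPM. Equally numbered libraries deviated together in every comparison. Their r across genes was 0.107 to 0.208 for CsA_PI and ethanol_PI and 0.143 to 0.320 for ethanol_PI and ethanol_US. It was 0.196 to 0.325 for CsA_US and ethanol_US, and weaker, at 0.033, 0.110 and 0.123, for CsA_PI and CsA_US. Differently numbered libraries of CsA_PI and CsA_US had -0.132 to 0.029. The replicate numbers come from the labels, which do not say what equally numbered libraries share.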

Additional observations from a re-analysis of the deposited data

Results flagged for a closer look

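Gbp11 drew attention because the effect of CsA had opposite signs in stimulated and unstimulated cells in every library, although the stimulated difference was not called (0.50 ± 0.26, edgeR adjusted p = 0.195, or 0.321 without CsA_PI 2). All 3 CsA_PI libraries were above the ethanol_PI mean and all 3 CsA_US libraries were below the ethanol_US mean, and the difference between both effects was 2.96 on the log2 scale, or 2.89 without CsA_PI 2. CsA_PI 2, the highest CsA_PI library at 13.0 CPM, was within the 11.9 to 15.2 CPM of ethanol_US. Likewise every CsA_PI library was above the CsA_US mean and every ethanol_PI library below the ethanol_US mean, and that difference is the same 2.96. It was not tested, because it holds the contrast that selected the gene.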

How the results depend on the processing

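With 3 libraries a group, precision rests on the spread between libraries, and 1 library, CsA_PI 2, set much of it: the common coefficient of variation was 0.349 with it and 0.301 without it. Alternatives were compared with TMM scaling, the filter and all 12 libraries. For CsA in stimulated cells, 2 members were called, and 2 or 3 in every alternative, Gbp9 and Gbp4 being called in each. The replicate block gave 3 members and 3528 of all genes, against 3318 without it. For stimulation with vehicle, 5 or 6 of the 7 members were called in every alternative, and the replicate block gave 6.

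For stimulation with CsA, 5 of 7 members and 760 of all genes were called. Members called were 1 with library totals, 3 with limma on log2(TPM + 1), 0 with only those 2 groups fitted, 7 with the replicate block, and 0 to 7 with a library left out. Among members, the block changed the calls of Gbp6 with CsA in stimulated cells and of Gbp9 and Igtp here, and no other call. All genes called were 5 with library totals, 1909 with DESeq2, 441 with the replicate block, 30 with limma, 0 with only those 2 groups fitted, and 0 to 4321 with a library left out. For CsA at rest, 1 gene was called, with 17 by DESeq2, 0 by limma and 0 to 7 with a library left out. The cause was not tested.

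Signs turned for uncalled values. Between CsA_PI and ethanol_PI, library totals gave 0.17 for Gbp5 and 0.11 for Gbp7. Leaving out a library gave -0.24 to 0.62 for Gbp2, -0.50 to 0.38 for Gbp5, -0.54 to 0.22 for Gbp7 and -0.20 to 0.32 for Gm12250. Between ethanol_PI and ethanol_US, Igtp was at -0.52 with library totals, -0.02 with no filter, -0.50 with limma and -0.06 to 0.22 with a library left out. Iigp1 was at -0.36 with library totals and -0.31 with limma, and Nkg7, a cytotoxic granule gene, at -0.07 with library totals.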
